A study of Rattus norvegicus with 56 samples.

Results

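The miR-34 and miR-449 family was followed in the rat hippocampus after traumatic brain injury (TBI). Its members were the 4 rows named rno-miR-34a-5p, rno-miR-34b-5p, rno-miR-34c-5p and rno-miR-449a-5p, out of 367 mature miRNAs with counts in the deposited table. The study used fluid percussion injury, in which a pressure pulse of fluid strikes the exposed dura, and compared TBI rats with sham-injured rats that had surgery without the pulse. Small RNA libraries were made from the hippocampi of 28 injured and 28 sham rats. Each of 7 intervals (24 h, 2 w, then 1 m, 2 m, 3 m, 6 m, with 1 y the last) had 4 rats of each kind, and each library came from its own rat. Strain, sex and age were not given in the labels, so the time since surgery and the age of the rats cannot be told apart. The pieces of tissue were bulk hippocampus, in which fewer cells of a type and less RNA per cell cannot be told apart.

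These miRNAs share a seed, the stretch of bases that pairs with target mRNAs, but come from 3 separate loci with different known activity. miR-34a is a direct transcriptional target of the tumour suppressor p53 and is expressed widely, brain included, where it is linked to cell cycle arrest and cell death. miR-34b and miR-34c are made from a common transcript and, with the miR-449 genes, are typical of cells that carry many motile cilia, such as the ependyma and choroid plexus of the brain ventricles and the airway epithelium, where the family takes part in making cilia. The comparison between members sets miR-34a beside 3 miRNAs known from ciliated epithelium. It does not separate p53 from cilia, since the response of each member to p53 was not tested here.

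The mature sequences show how alike the members are, and so which reads could be mistaken for each other. They were read from RefSeq (assembly GRCr8), in which all 4 members were found, and run 5′ to 3′ with the seed (bases 2 to 8) in capitals. The last line gives rno-miR-449c-5p, which is no member but was also in the table and had the same seed.
rno-miR-34a-5p: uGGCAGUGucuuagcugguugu
rno-miR-34b-5p: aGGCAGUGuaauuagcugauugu
rno-miR-34c-5p: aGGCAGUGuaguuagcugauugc
rno-miR-449a-5p: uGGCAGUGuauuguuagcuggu
rno-miR-449c-5p: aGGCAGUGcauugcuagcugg
In this assembly the mature RNAs lie at chr5:165815971-165815992 (plus strand) for miR-34a, chr8:60306657-60306679 and chr8:60306133-60306155 (both minus strand) for miR-34b and miR-34c, and chr2:46403925-46403946 and chr2:46402394-46402414 (both plus strand) for miR-449a and miR-449c. These 5 were the only rows of the table with a RefSeq sequence that carried the seed GGCAGUG. Position by position from the 5′ end, miR-34b and miR-34c differed at 2 of 23 bases (A11G and U23C, miR-34b first). miR-34a differed from miR-449a at 7 of 22 bases and from miR-34b and miR-34c at 11 of 22 each, counted without gaps. How reads matching several of these were divided by the authors was not stated, so the split of reads between miR-34b and miR-34c is uncertain. The annotation places Mir34b and Mir34c next to each other inside Hoatz, a gene named for its association with cilia and flagella. Mir34a overlaps a long non-coding RNA between H6pd and Gpr157, and Mir449a and Mir449c overlap another long non-coding RNA beside Gpx8.

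The libraries held 3665721 to 11885871 counts in sham rats and 69628 to 12468979 in TBI rats (medians 5412190 and 5331848), and the lowest total, that of TBI rat X747 at 2 m, was far under all others. In X747 miR-34c-5p had 79 counts, miR-34a-5p 11, miR-34b-5p 7 and miR-449a-5p 2. Its level of miR-34c-5p was 907 CPM (counts scaled to a common library size, here after one TMM scaling of all 56 libraries), with an exact 95% Poisson interval of 718 to 1130, and that of miR-449a-5p was 23.0 CPM with an interval of 2.78 to 82.9. Such intervals cover counting error only. In the other libraries the members had at least 18 counts (miR-449a-5p), 163 (miR-34b-5p), 248 (miR-34a-5p) and 1894 (miR-34c-5p). The neuron-enriched miRNAs summed to 152000 to 359000 CPM in the libraries. No other tissue was compared, so this sum cannot check the hippocampus label.

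miR-34c-5p was the most abundant member, at a median of 824 CPM over the 56 libraries (440 to 3835) and rank 64 of 367. miR-34a-5p followed at 182 CPM (111 to 426, rank 105), then miR-34b-5p at 90.2 CPM (44.5 to 436, rank 125) and miR-449a-5p at 11.1 CPM (4.79 to 47.6, rank 182). Because reads of a mature miRNA all have nearly the same length, these CPM values compare levels per molecule, apart from ligation and amplification biases that differ between sequences. All 4 members passed the filter on low counts at all 7 intervals. miR-449c-5p passed it at 0 intervals, with 0 counts in 11 libraries, which allows up to 3 counts there.

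**Figure D1:**
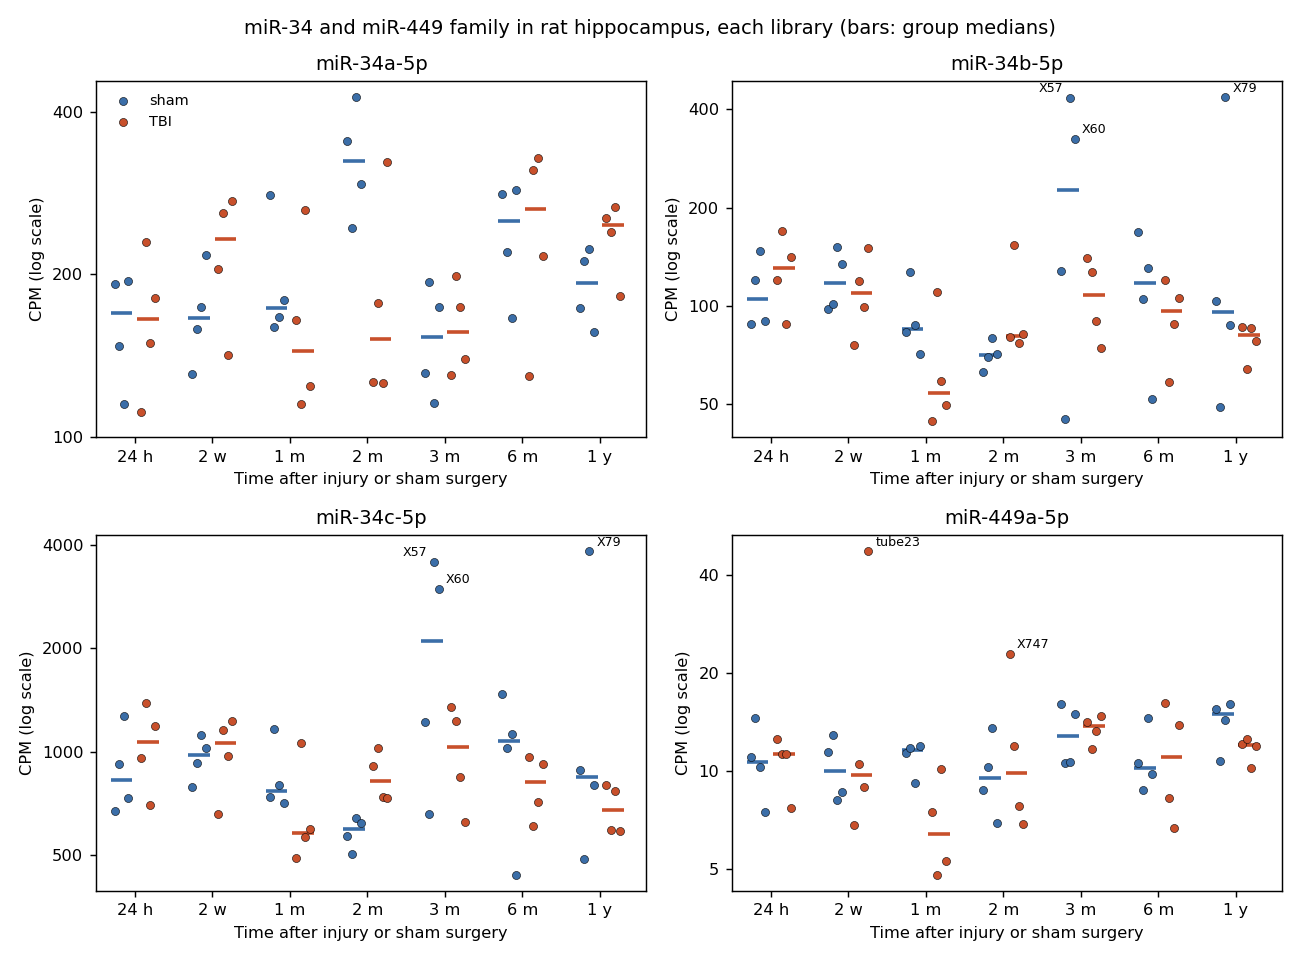
Level of each family member in each of the 56 libraries, in CPM on a log axis, by interval, with sham rats in blue, TBI rats in orange and bars at the group medians (4 libraries each). Sham rats X57, X60 and X79 lie far above the others in miR-34b-5p and miR-34c-5p and not in miR-34a-5p or miR-449a-5p, and TBI rat tube23 has 47.6 CPM of miR-449a-5p.

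Before the comparisons, 3 sham libraries have to be set apart. Rats X57 and X60 at 3 m and rat X79 at 1 y had 20340, 17930 and 18890 CPM of miR-204-5p, the leading miRNA of the choroid plexus, while the other 53 libraries held 1080 to 5010 CPM. The 4 choroid plexus miRNAs of the marker list (miR-204-5p, miR-211-5p, miR-448-5p and miR-764-5p) summed to 20840, 18390 and 19380 CPM in these rats and to at most 5115 CPM in any other. Together with them stood miR-34b-5p, at 435, 326 and 436 CPM, and miR-34c-5p, at 3568, 2982 and 3835 CPM. These were 4.92, 3.69 and 4.94 times the median of the other 53 libraries for miR-34b-5p and 4.45, 3.72 and 4.79 times for miR-34c-5p. Ranked by this fold, both were among the 8 highest of the 244 miRNAs that passed the filter in each of the 3 rats. In each of these rats, miRNAs outside the family and the choroid plexus list were also among these 8, some of them ranked above both. miR-34a-5p was at 0.632, 0.955 and 1.22 times the median in these rats and miR-449a-5p at 0.97, 1.36 and 1.31 times, all inside the range of the other 53 libraries. The summed neuron list was at 1.09, 1.05 and 0.862 times its median in the same libraries. That sum was mostly miR-9a-5p, with medians of 198000 CPM for miR-9a-5p and 249000 CPM for the sum in the other 53. Single miRNAs of the list, each read by its 5p row, went either way. miR-124-5p was at 0.74, 0.656 and 0.7 times its median and miR-137-5p at 1.14, 1.22 and 1.05 times. The part that choroid plexus tissue had in the dissected samples was not tested.

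**Figure D2:**
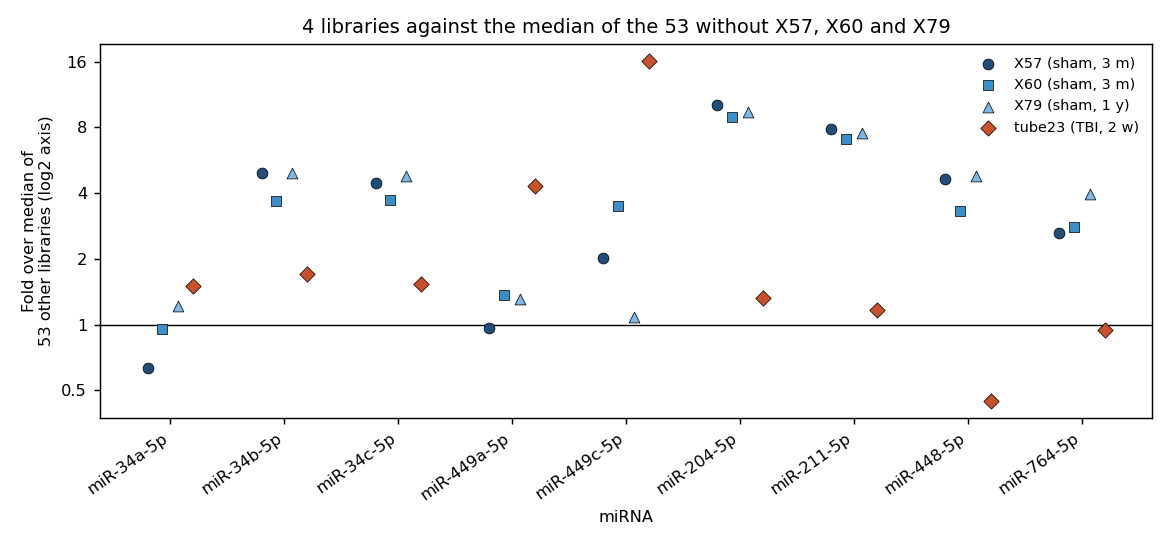
Fold of each family member, of miR-449c-5p and of the 4 choroid plexus miRNAs over the median of the 53 libraries without X57, X60 and X79, on a log2 axis, for those 3 sham rats (blue) and TBI rat tube23 (orange). The 3 sham rats are at 3.69 to 4.94 for miR-34b-5p and 3.72 to 4.79 for miR-34c-5p, whereas tube23 is at 4.32 for miR-449a-5p.

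The first question was whether injury changed the members at any interval. In the 28 comparisons of 4 members at 7 intervals, 0 had an adjusted p under 0.05 in edgeR's quasi-likelihood test, with adjusted p from 0.244 to 0.992, and 3 had an unadjusted p under that limit. The likelihood ratio test of edgeR and DESeq2 also called 0 of the 28. Among all miRNAs tested, 1.72% were called at 24 h, 0.417% at 1 m and 0% at each of the other 5 intervals. Of the 28 log2 fold changes 13 were positive and 15 negative, from −1.14 to 0.88, and the 2 lowest, for miR-34c-5p and miR-34b-5p at 1 y, came in a comparison that holds X79.

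Levels of miR-34a-5p overlapped between TBI and sham rats at every interval. At 24 h the sham rats had 192, 147, 115 and 194 CPM and the TBI rats 111, 229, 149 and 181 CPM, a log2 fold change of 0.06 ± 0.24 (SE, n = 4 and 4) with an adjusted p of 0.981 in edgeR. At 2 w it was 170 ± 36 CPM (SD, n = 4) after sham injury and 220 ± 60.1 after TBI, a log2 fold change of 0.39 ± 0.21 (SE). Neither interval gave a difference beyond the scatter of single rats. At the later intervals other than 2 m the log2 fold change ran from −0.21 ± 0.27 (SE) at 1 m to 0.29 ± 0.15 at 1 y, with adjusted p between 0.431 and 0.971. At 1 y the TBI rats had 183 to 267 CPM and the sham rats 156 to 223 CPM, and 3 of the 4 injured rats exceeded the highest sham rat. With all intervals pooled, the injury effect on miR-34a-5p was −0.01 ± 0.11 (SE, adjusted p = 0.977 in edgeR, 28 rats against 28), where 4.51% of all miRNAs were called, all of them higher after TBI and none a member.

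At 2 m the estimates for miR-34a-5p and miR-34c-5p lay on opposite sides of 0. The 4 sham rats had 353, 244, 426 and 294 CPM of miR-34a-5p and the 4 TBI rats 126, 177, 126 and 323 CPM, with rat X750 alone among the TBI rats inside the sham range. The first of these TBI values is that of X747, from 11 counts, with an exact 95% Poisson interval of 63.0 to 226 CPM. The log2 fold change was −0.75 ± 0.31 (SE, unadjusted p = 0.0344 and adjusted p = 0.596 in edgeR), and the two-sided exact permutation test of log2 CPM gave p = 0.0857. For miR-34c-5p the sham rats had 570, 504, 644 and 623 CPM and the TBI rats 907, 1029, 738 and 736 CPM, so that the lowest injured rat exceeded the highest sham rat. This gave a log2 fold change of 0.52 ± 0.16 (SE, adjusted p = 0.466 in edgeR) and an exact permutation p of 0.0286, the smallest that 4 rats against 4 allow, which became 0.533 after adjustment over the 28 tests of this kind. It was the only 1 of the 28 comparisons without overlap, and 2.46% of the 244 miRNAs lacked overlap in this direction at 2 m. miR-34b-5p went the same way, with 62.9 to 79.9 CPM in sham rats and 77 to 154 CPM in TBI rats (log2 fold change 0.48 ± 0.24, exact permutation p = 0.0571). The 4 choroid plexus miRNAs had log2 fold changes of 0.22 to 0.74 there, all positive and 0 called. The 6 other p53-linked miRNAs had 1 positive and 5 negative estimates there, with a median log2 fold change of −0.18 beside −0.03 for all miRNAs.

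miR-34b-5p and miR-34c-5p had log2 fold changes of the same sign at 6 of the 7 intervals, the exception being 2 w (−0.11 and 0.07). At 24 h they were 0.22 ± 0.24 and 0.23 ± 0.26 (SE), at 1 m −0.42 ± 0.31 and −0.26 ± 0.27, and at 6 m −0.29 ± 0.31 and −0.34 ± 0.29, none past the threshold. The largest differences were at 3 m and 1 y and rested on the 3 sham rats set apart above. At 3 m miR-34c-5p was at 1223, 661, 3568 and 2982 CPM in sham rats and at 1350, 1226, 847 and 627 CPM in TBI rats, a log2 fold change of −1.01 ± 0.47 (SE, adjusted p = 0.533 in edgeR). Without X57 and X60 it was 0.09, and that of miR-34b-5p went from −1.07 to 0.30. At 1 y miR-34c-5p was at 887, 489, 3835 and 802 CPM in sham rats and 801, 592, 767 and 589 CPM in TBI rats, a log2 fold change of −1.14 ± 0.58 (SE, adjusted p = 0.431). The 3 sham rats other than X79 averaged 726 CPM and the TBI rats 688 CPM. For miR-34b-5p these averages were 80.1 and 78.6 CPM, against 169 CPM in all 4 sham rats. Pooled over intervals, the injury effect was −0.35 ± 0.18 for miR-34b-5p (adjusted p = 0.361 in edgeR) and −0.29 ± 0.17 for miR-34c-5p (adjusted p = 0.391). Without X57, X60 and X79 the pooled values were −0.001 and 0.02. The 4 choroid plexus miRNAs shared the pattern, with medians of −1.16 at 3 m, −1.11 at 1 y and −0.35 pooled on the log2 scale, and 0 of 4 called in each.

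miR-449a-5p, the scarcest member, was at 4.79 to 16.2 CPM in all libraries other than TBI rats X747 and tube23. At 1 m the sham rats had 11.4, 11.8, 9.18 and 11.9 CPM and the TBI rats 7.48, 4.79, 10.2 and 5.28 CPM, with 3 of the 4 TBI rats below all sham rats. The log2 fold change was −0.62 ± 0.26 (SE, unadjusted p = 0.0339 and adjusted p = 0.244 in edgeR), and 42 of the 240 miRNAs tested at 1 m had an unadjusted p under 0.05. The largest estimate, 0.88 ± 0.56 at 2 w, rested on a single library. TBI rat tube23 had 47.6 CPM (288 counts), the other 3 TBI rats 6.82, 8.93 and 10.5 CPM and the sham rats 11.4, 12.9, 8.12 and 8.60 CPM, and without tube23 the log2 fold change was −0.19. The same library had 27 counts of miR-449c-5p, while no other library had more than 6, and its miR-34a-5p, miR-34b-5p and miR-34c-5p were at 1.5, 1.7 and 1.53 times their medians. Its choroid plexus sum was at 1.3 times the median of the 53 libraries. At the other intervals the log2 fold changes of miR-449a-5p ran from −0.29 (1 y) to 0.09 (3 m), and the pooled effect was −0.02 ± 0.14 (SE, adjusted p = 0.977).

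**Figure D3:**
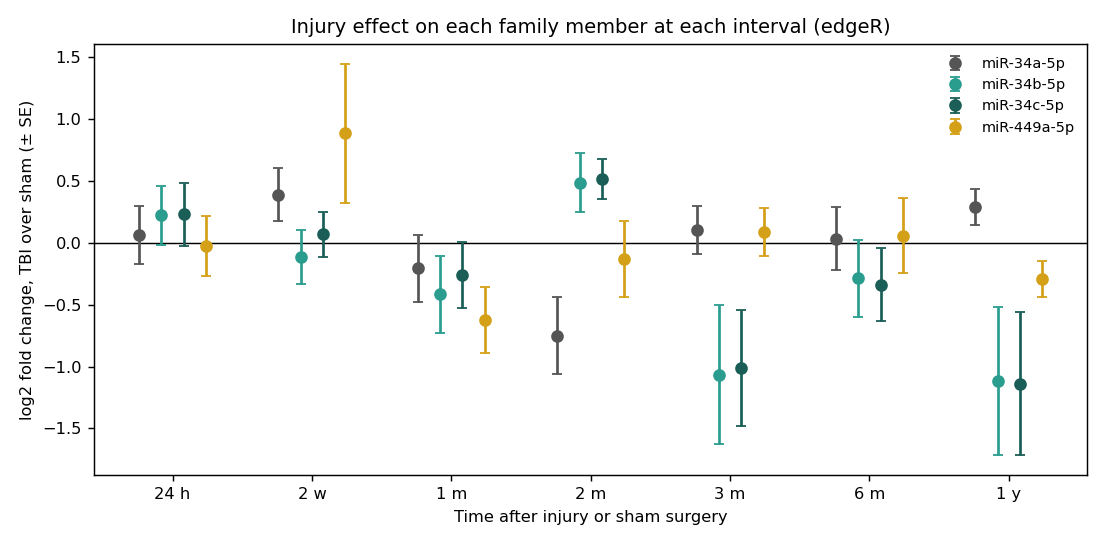
Log2 fold change of TBI over sham for each family member at each interval, from edgeR on 4 TBI and 4 sham libraries, with bars of 1 standard error. At 2 m miR-34a-5p (−0.75) and miR-34c-5p (0.52) lie on opposite sides of 0, and the wide bars of miR-34b-5p and miR-34c-5p at 3 m and 1 y belong to comparisons that hold sham rats X57, X60 and X79.

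The injury effect on the members was also compared between intervals. The test of 6 interaction terms in edgeR over 56 libraries gave adjusted p-values of 0.508 for miR-34a-5p, 0.429 for miR-34b-5p, 0.334 for miR-34c-5p and 0.508 for miR-449a-5p, so 0 of the 4 were called, against 2.87% of all 244 miRNAs. For miR-34c-5p the unadjusted p of the interaction test was 0.0382. Within miR-34c-5p the estimates ran from −1.14 at 1 y to 0.52 at 2 m.

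In sham rats alone, miR-34a-5p differed between intervals (F-test of 6 interval terms in edgeR, adjusted p = 0.0052, 28 rats), among 27.1% of the 240 miRNAs tested. It was highest at 2 m, at 329 ± 78.6 CPM (SD, n = 4), followed by 6 m (239 ± 56.9), 1 m (197 ± 56.2), 1 y (191 ± 31.5), 2 w (170 ± 36), 24 h (162 ± 38.2) and lastly 3 m (154 ± 36.3). In order of their medians, every interval overlapped the next in range, with exact permutation p from 0.114 to 0.943. The call rested on the 2 m rats, since without that interval the adjusted p was 0.277, and 12 miRNAs were called in place of 65. The vessel wall miRNAs (miR-126a, miR-143 and miR-145) were also highest in the 2 m sham rats, with a median sum of 1670 CPM, beside 1060 to 1360 CPM at the other sham intervals. So were the p53-linked miRNAs outside the family, at 3360 CPM beside 2440 to 2670 CPM, and the part of either in the level of miR-34a-5p was not tested. In TBI rats the median was highest at 6 m (264 CPM), lowest at 1 m (144 CPM) and next to lowest at 2 m (152 CPM), and each range again overlapped the next.

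The other members did not pass this test in sham rats, with adjusted p-values of 0.12 for miR-34b-5p, 0.0557 for miR-34c-5p and 0.316 for miR-449a-5p. For miR-34c-5p the call depended on the method, since the adjusted p was 0.034 with DESeq2, 0.0125 with edgeR's likelihood ratio test and 0.0477 with size factors of DESeq2. miR-34c-5p was lowest in the 2 m sham rats (585 ± 62.6 CPM, SD, n = 4), and these did not overlap the next interval in order of medians, 1 m (856 ± 213 CPM). It was the only 1 of 48 such steps over 4 members and both treatments without overlap, the steps were ordered by the levels themselves, and 3.69% of the 244 miRNAs had all 1 m sham rats above all 2 m sham rats. The choroid plexus miRNAs were lowest in the same rats, with miR-204-5p at a mean of 1352 CPM, beside 2056 CPM or more at the other sham intervals, and miR-211-5p at 36.8 CPM, beside 51.4 CPM or more. Their part in the low miR-34c-5p was not tested. Without X79 the adjusted p was 0.00859 for miR-34c-5p and 0.0343 for miR-34b-5p, and without X57, X60 and X79 together it was 0.227 and 0.287. Comparing 1 y with 24 h in sham rats gave log2 differences of 0.24 ± 0.22 for miR-34a-5p, 0.61 ± 0.53 for miR-34b-5p, 0.74 ± 0.48 for miR-34c-5p and 0.39 ± 0.22 for miR-449a-5p (SE), 0 of 4 called against 1.67% of all miRNAs. Without X79 those of miR-34b-5p and miR-34c-5p became −0.47 and −0.31.

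Ratios of members within a library do not depend on how libraries were scaled. miR-34c-5p and miR-34b-5p kept close to a fixed proportion, with 6.67 to 14.6 reads of miR-34c-5p for each read of miR-34b-5p (median 8.84). That is, miR-34b-5p made up 6.41% to 13% of the pair in all 56 libraries, although its own level varied 9.8-fold. Reads of one counted as the other would also bear on this proportion, which was not tested. In X57, X60 and X79 both miR-34b-5p and miR-34c-5p were high. The ratio of miR-34c-5p to miR-34a-5p was far wider, from 1.51 in sham rat X752 at 2 m to 30.9 in sham rat X57 at 3 m (median 4.77). At 2 m this ratio was 1.62, 2.07, 1.51 and 2.12 in sham rats and 7.18, 5.81, 5.87 and 2.28 in TBI rats, without overlap and higher after TBI. The 7.18 is that of X747, from 79 counts over 11. The numerator, miR-34c-5p, lacked overlap at 2 m by itself, so the ratio is not a separate result. How often ratios of other miRNAs lacked overlap was not computed. On the log2 scale the ratio was 0.85 ± 0.25 (SD, n = 4) in sham rats and 2.28 ± 0.74 in TBI rats, a difference of 1.43 with an exact permutation p of 0.0286 (adjusted p = 0.429 over 21 ratio tests). Of the 21 tests, which set miR-34b-5p, miR-34c-5p and miR-449a-5p over miR-34a-5p at each interval, 0 passed after adjustment. miR-34a-5p had 5.5 to 49.4 reads for each read of miR-449a-5p (median 17.8).

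**Figure D4:**
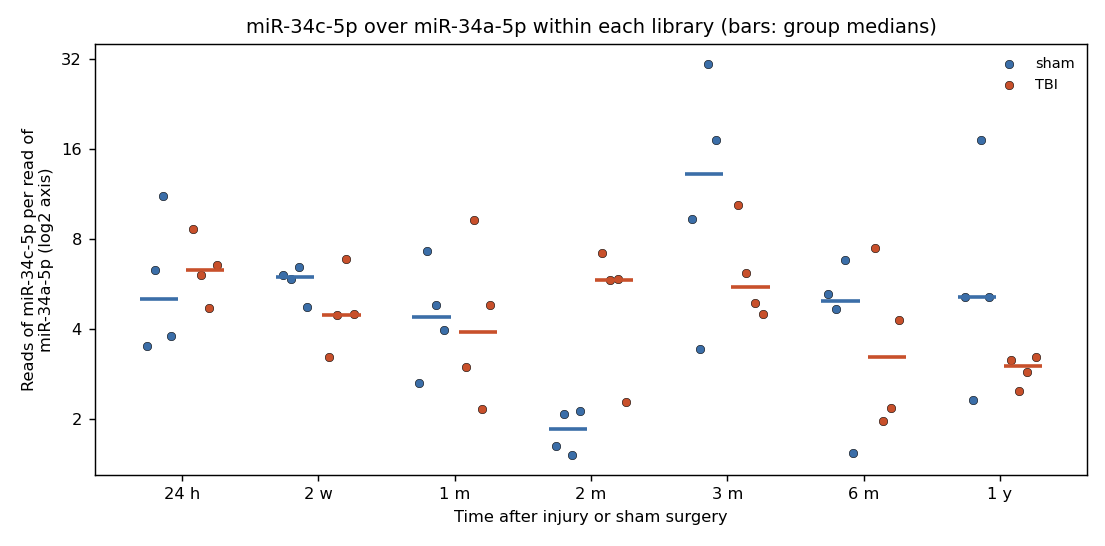
Reads of miR-34c-5p per read of miR-34a-5p in each library, on a log2 axis, by interval, with sham rats in blue, TBI rats in orange and bars at the group medians (4 libraries each). At 2 m the sham rats are at 1.51 to 2.12 and the TBI rats at 2.28 to 7.18, and the highest value, 30.9, is sham rat X57 at 3 m.

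Across the 56 libraries miR-34b-5p and miR-34c-5p tracked each other closely and the other members did not. These correlations are descriptions, since the points share intervals, group means and library scaling. miR-34b-5p and miR-34c-5p had a Spearman rho of 0.95, and 0.94 without X57, X60 and X79. Deviations from the group means gave 0.95 as well. The split of reads between these nearly identical sequences is uncertain, and the part of misassigned reads in their likeness was not tested. miR-34a-5p had rho of −0.26 with miR-34b-5p, −0.31 with miR-34c-5p and −0.24 with miR-449a-5p, and of deviations from the group means only −0.05, −0.09 and −0.18. miR-449a-5p had 0.32 with each of miR-34b-5p and miR-34c-5p, and 0.13 and 0.08 for the deviations.

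Of the miRNAs outside the family, the one most like miR-34b-5p and miR-34c-5p over the 56 libraries was miR-204-5p of the choroid plexus, with rho of 0.48 and 0.50. The next for miR-34b-5p were miR-7b (0.45), miR-146b-5p (0.45), miR-455-5p (0.42) and miR-7a-5p (0.42), and for miR-34c-5p miR-455-5p (0.45), miR-211-5p (0.41), miR-7b (0.40) and miR-32-5p (0.38). This rank rested on the 3 sham rats set apart. Without them, over 53 libraries, miR-7b came first for both (0.51 and 0.46), and miR-204-5p, with rho of 0.38 and 0.41, was outside the first 5 for miR-34b-5p and second for miR-34c-5p. Without X79, X769 and X747, miR-146b-5p led for miR-34b-5p (0.48). Deviations from the group means over all 56 libraries, X57, X60 and X79 included, gave miR-204-5p 0.53 with each of miR-34b-5p and miR-34c-5p. For miR-211-5p these were 0.59 and 0.62, for miR-448-5p 0.27 and 0.3, and for miR-764-5p 0.24 with each. For miR-34a-5p the rho of levels with miR-204-5p was −0.39 and for miR-449a-5p 0.14. The likest miRNAs to miR-34a-5p were miR-592 (0.73), miR-335 (0.73), miR-490-5p (0.67), miR-582-5p (0.67) and miR-376b-5p (0.66). For miR-449a-5p they were miR-499-5p (0.44), miR-301a-5p (0.43), let-7f-5p (0.40), miR-26a-5p (0.35) and miR-218a-5p (0.34), of which none is a choroid plexus miRNA of the list.

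**Figure D5:**
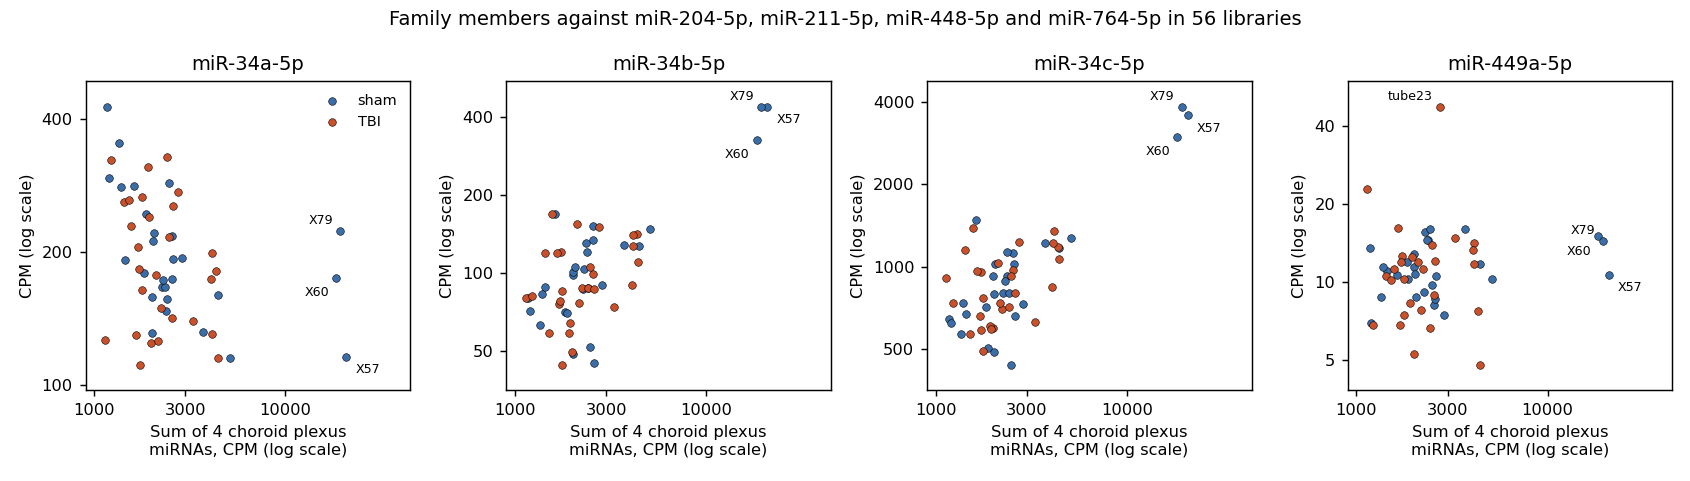
Level of each family member (CPM, log axis) against the summed level of miR-204-5p, miR-211-5p, miR-448-5p and miR-764-5p (CPM, log axis) in the 56 libraries, with sham rats in blue and TBI rats in orange. X57, X60 and X79, with sums of 18390 to 20840 CPM, hold the 3 highest levels of miR-34b-5p and miR-34c-5p, while their miR-34a-5p and miR-449a-5p are at 0.632 to 1.36 times the median of the other 53.

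miRNAs linked to p53 from outside the family were taken from a list of 7 (miR-192, miR-194, miR-215, miR-143, miR-145, miR-15a and miR-16, raised by p53 at the level of transcription or processing), of which 6 were in the table, each read by its 5p row. With all intervals pooled, 0 of these 6 were called, with 4 positive and 2 negative estimates and a median log2 fold change of 0.04, beside −0.01 over all 244 miRNAs. Their summed level was 1990 to 4010 CPM in sham rats and 2040 to 3720 CPM in TBI rats. Over the sham intervals 3 of the 6 were called, beside 27.1% of all 240 miRNAs, a total of 65 that was 12 without the 2 m rats. Their rho with miR-34a-5p over the 56 libraries ranged from 0.19 (miR-192-5p) to 0.59 (miR-143-5p, miR-15a-5p and miR-16-5p). Such values were not particular to this list, since miR-126a-5p also had 0.59. The 5 miRNAs most like miR-34a-5p, none of them on the list, had 0.66 to 0.73. The libraries with the most miR-34a-5p at 2 m, sham rat X752 and TBI rat X750, were also those with the highest p53-linked sum of their treatment, 4010 and 3720 CPM. They had the highest sums of the vessel wall list too (miR-126a-5p, miR-143-5p and miR-145-5p, of which the p53 list shares 2), 1940 and 2080 CPM. At 2 m the vessel wall sum was 1400 to 1940 CPM in sham rats and 1070 to 2080 CPM in TBI rats.

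Other cell type lists were read for the pooled comparison in which the members were not called. Of the leukocyte and microglia miRNAs 3 of 4 were called, all higher after TBI, with a median log2 fold change of 0.72, beside 4.51% of all miRNAs. Without TBI rat tube23, 2 of these 4 were called and 4 of all miRNAs, in place of 11. The neuron list had 0 of 9 called (median 0.01), the oligodendrocyte list 0 of 3 (−0.07), the red blood cell list 0 of 2 (−0.12) and the vessel wall list 0 of 3 (0.07). The 4 family members had a median of −0.16, beside −0.01 for all miRNAs. Leaving out 1 library at a time kept miR-34b-5p at −0.411 to −0.193 and miR-34c-5p at −0.352 to −0.145. The estimates for miR-34a-5p and miR-449a-5p crossed 0 when single libraries were left out. Without X57, X60 and X79 the estimate for miR-34b-5p was −0.001 and that for miR-34c-5p 0.022, without X747 that for miR-34a-5p was 0.001, and without X79 and TBI rat X769 that for miR-449a-5p was 0.001.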

How the data were processed

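Hippocampal small RNA libraries (NEBNext kit, NextSeq550) of 56 rats were processed by the authors with miRDeep2 and miRBase. Values as deposited were raw read counts per mature miRNA. The submitters' notes name bcl2fastq 2.20.0.422; how reads matching several miRNAs were divided is not given in the sources used here. Of 367 miRNAs, 34 had no reads. The names of 309 rows ended in 5p, those of 5 in 3p, and 53 gave no arm. The miRNAs of the lists were read by their 5p rows only. Their other arms were not read, so which arm is the more abundant was not tested. Low counts were filtered with filterByExpr, which left 244 over all 56 libraries. Tests were edgeR 4.0.16 quasi-likelihood F-tests (R 4.3.3, TMM, Benjamini-Hochberg, threshold 0.05) for each interval, pooled with interval as covariate, for the interaction, and between intervals in sham rats. Two-sided exact permutation tests used all 70 assignments (Python 3.11.15, scipy 1.17.1). Scripts were tested on simulated data. Alternatives were other scalings, no filter, DESeq2 1.42.0, edgeR's likelihood ratio test, a joint fit and leaving out libraries. Members and lists were chosen with earlier results of these data known. Named miRNAs were the members, others with their seed, list members that a result turned on, and the 5 miRNAs most like each member by Spearman correlation. Within groups no pair of libraries agreed within sampling noise (chi-square per degree of freedom at least 17.47 over 84 pairs). Total counts ranged from 69628 to 12468979. The tests set group differences against the spread between libraries, each from its own rat. That spread holds rat, library preparation and depth together.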

Additional observations from a re-analysis of the deposited data

Results flagged for a closer look

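Of 56 groups of 4 libraries examined over the members, 5 held a library far from the other 3 by Dixon's test on CPM. Chance gives about 1 in 20 groups, or 2.8, if values are normally distributed and groups independent. CPM was not put on a log scale here, and miR-34b-5p and miR-34c-5p moved together. The 5 therefore cannot be judged against 2.8. miR-34b-5p was at 436 CPM and miR-34c-5p at 3835 CPM in sham rat X79 at 1 y, where the other 3 sham rats had 48.9 to 104 and 489 to 887 CPM. In TBI rat tube23 at 2 w, miR-449a-5p was at 47.6 CPM, while the other 3 TBI rats had 6.82 to 10.5 CPM. The same library held 27 counts of miR-449c-5p, which did not pass the filter in any comparison, against 0 to 6 counts in the sham libraries. miR-34a-5p was at 280 CPM in sham rat X783 at 1 m (160 to 179 CPM in the other 3), and miR-34b-5p at 154 CPM in TBI rat X749 at 2 m (77 to 81.9 CPM in the other 3). Sham rats X57 and X60 did not stand out by this test, since both belong to the same group of 4.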

How the results depend on the processing

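None of the 28 comparisons of a member between TBI and sham rats passed the threshold under any alternative. The sample titles carry 28 numbers, each in 2 titles. At 6 intervals both titles belong to the same group, so no paired analysis was possible there, and the sequencing run behind the repeat is not given, so a split by run was not tested. At 1 y each number is shared by 1 sham and 1 TBI library, and deviations of these pairs from their group means correlated at −0.17 to 0.33. Other pairs were not compared, so these values cannot show what the number stands for. Whether sequencing run and injury went together at 1 y cannot be told from the labels. With the number as a replicate block 0 miRNAs were called at 1 y. The log2 fold changes were then 0.293 for miR-34a-5p, −0.606 for miR-34b-5p, −0.653 for miR-34c-5p and −0.289 for miR-449a-5p. Alternatives that left out X57, X60 and X79, tube23 or the 2 m interval, and the block, were chosen after seeing the data. The cause of each change was not tested, except where fewer libraries were used by construction. X747, with 69628 counts, limits the values of the scarce members at 2 m.

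The number of miRNAs called was 8 at 24 h in the joint fit. At 2 w it was 8 with the likelihood ratio test, 7 with DESeq2 and 4 in the joint fit, at 1 m 2 without a filter, 5 with the likelihood ratio test, 5 with DESeq2 and 37 in the joint fit, at 2 m 2, 1 and 2 with the likelihood ratio test, DESeq2 and the joint fit, and at 3 m 1 with DESeq2. Over all intervals it was 5 with scaling by total count and 4 without tube23, for the interaction 12 with the likelihood ratio test and 11 with DESeq2, between sham intervals 34 without X57, X60 and X79 and 12 without the 2 m interval, and for 1 y against 24 h 0 without X79 and 0 without X57, X60 and X79. Leaving out 1 library at a time gave 2 to 5 at 24 h, 0 to 6 at 2 w, 1 to 7 at 1 m, 0 to 2 at 2 m, 0 to 1 at 1 y, 4 to 15 over all intervals, 5 to 18 for the interaction, 39 to 81 between sham intervals and 0 to 17 for 1 y against 24 h.

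Log2 fold changes that turned in sign were those of miR-449a-5p at 24 h (0.007 by total count), of miR-34a-5p, miR-34b-5p and miR-34c-5p at 3 m without X57 and X60 (−0.026, 0.302 and 0.091), and over all intervals of miR-34a-5p without X747 (0.001), miR-34c-5p without X57, X60 and X79 (0.022) and miR-449a-5p without X79 and X769 (0.001). For 1 y against 24 h in sham rats miR-34b-5p was at −0.474 without X79 and −0.476 without X57, X60 and X79, and miR-34c-5p at −0.309 in both. Leaving out 1 library at a time, the range crossed 0 for miR-34a-5p at 24 h (−0.118 to 0.224), 3 m (−0.017 to 0.247), 6 m (−0.114 to 0.236) and over all intervals (−0.05 to 0.021), for miR-34b-5p at 2 w (−0.306 to 0.022) and 1 y against 24 h (−0.474 to 0.842), and for miR-34c-5p at 2 w (−0.057 to 0.217) and 1 y against 24 h (−0.309 to 0.965). For miR-449a-5p it crossed 0 at 24 h (−0.149 to 0.132), 2 w (−0.185 to 1.121), 2 m (−0.347 to 0.101), 3 m (−0.007 to 0.173), 6 m (−0.215 to 0.248) and over all intervals (−0.179 to 0.01).

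Between sham intervals the adjusted p of miR-34a-5p was 0.277 without the 2 m interval. That of miR-34b-5p was 0.0343 without X79, and that of miR-34c-5p was 0.0477 with DESeq2 size factors, 0.0125 with the likelihood ratio test, 0.034 with DESeq2 and 0.00859 without X79. Leaving out 1 library at a time gave 0.0025 to 0.0309 for miR-34a-5p, 0.0274 to 0.339 for miR-34b-5p and 0.00859 to 0.174 for miR-34c-5p.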
